A study of Mus musculus with 13 samples.

Results

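The genes described here are 10 mouse genes of the amino acid response that the transcription factor ATF4 drives: Atf4 itself, Asns, Psat1, Phgdh, Mthfd2, Slc7a11, Slc3a2, Chac1, Ddit3 and Trib3. They were chosen by name, with earlier results of these data known. Counts set below against shares of all genes therefore describe the 10 genes and are not an independent test. Each gene was read from the probe set annotated to it alone. All 10 were found, each with 1 such probe set, among 19938 genes on the array. The arrays were Affymetrix Mouse Gene 1.0 ST, which measure 1 sample in 1 colour. The samples were femoral bone marrow of male C57BL/6 mice, 6 weeks old, and 13 arrays were analysed. Untreated mice at baseline formed the control group (n = 3). The other mice had 500 µL of blood drawn by retro-orbital puncture (phlebotomy), and their marrow was collected later: 1 sample after 4 h, 3 samples after 9 h, and 2 samples each after 12 h, 15 h and 48 h. The labels give no sham puncture for the controls, no hour of day, and no statement that the arrays of a group came from separate animals, so a p-value here measures only how far these samples spread, and that spread may be technical.

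ATF4 is a bZIP transcription factor made mainly when the initiation factor eIF2 is phosphorylated, which slows general translation but favours translation of the Atf4 mRNA. The kinases that phosphorylate eIF2 sense amino acid shortage (GCN2), misfolded protein in the endoplasmic reticulum (PERK), double-stranded RNA (PKR) and, in red cell precursors, lack of heme (HRI). ATF4 then raises enzymes that make amino acids, carriers that import them, and genes that end or punish a prolonged response. In bone marrow the heme-sensing kinase links the pathway to erythroid precursors, the cells that replace lost blood.

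ATF4 binds with C/EBP family partners to a composite element that can be written TGATGNAA. This motif was searched for on both strands of the RefSeq promoter windows of build GRCm38.p6, which run from 250 bases before to 50 bases after the start of a gene. It lay in windows of 4 of the 10 genes, and in 3.97% of all 32851 windows. The 4 genes were Asns, Slc7a11, Chac1 and Trib3; the letters did not occur in the windows of Mthfd2, Psat1, Phgdh, Slc3a2, Ddit3 or Atf4. A match is a description of the sequence and not a measured binding site. The stretches below, each 100 bases long and written 5′ to 3′ on the strand of the gene, show the match in capitals. Asns is shown because its transcript rose, Slc7a11 because it holds 2 matches, on opposite strands, and its transcript passed no test, Chac1 because it is a stress-end target with a match, and Mthfd2 because its transcript rose and its window holds no match.
Asns, chr6:7693210-7693309, minus strand: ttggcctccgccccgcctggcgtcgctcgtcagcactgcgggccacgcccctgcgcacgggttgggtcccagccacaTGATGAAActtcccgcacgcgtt
Slc7a11, chr3:50443614-50443713, minus strand: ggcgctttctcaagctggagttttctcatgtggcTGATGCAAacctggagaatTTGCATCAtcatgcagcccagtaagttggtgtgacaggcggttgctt
Chac1, chr2:119351012-119351111, plus strand: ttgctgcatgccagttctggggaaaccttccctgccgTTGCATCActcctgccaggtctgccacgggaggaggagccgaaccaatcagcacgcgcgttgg
Mthfd2, chr6:83317605-83317704, minus strand: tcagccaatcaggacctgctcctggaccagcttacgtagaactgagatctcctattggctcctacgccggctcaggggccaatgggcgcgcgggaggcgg
With the first base before the start counted as -1, the Asns match covered positions -23 to -16. Those of Slc7a11 covered -66 to -59 and -47 to -40, that of Chac1 -193 to -186, and that of Trib3 lay after the start, at positions 15 to 22.

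The numbers in the sample titles fall into a larger run of 10 arrays and a smaller run of 3 (control replicate 3 and 9 h replicates 1 and 2). What the runs were is not stated in the labels. Log2 levels had a median of 7.01 in the larger run and 7.79 in the smaller, and 62.3% of probe sets of the smaller run repeated a value on 2 or all 3 of its arrays, so levels are compared only within a run. Marrow markers were high on every array of the larger run: the mean log2 level of 13 neutrophil genes was 12.50 to 12.69 and that of 10 erythroid genes 11.08 to 11.80, globins not among them. Transcripts of other tissues were present on some arrays. The 25 small intestine genes averaged 9.40 at 4 h, 6.53 and 6.49 on the larger run's controls, and 5.93 to 6.13 on its other arrays. In the smaller run they averaged 7.12 on the control and 6.77 and 6.72 at 9 h. The 18 liver genes averaged 7.29 and 6.92 at 48 h and 5.46 to 5.88 on the other arrays of the larger run. The 14 skeletal muscle genes averaged 10.03 at 4 h, 8.20 and 8.11 on the larger run's controls, 9.17 and 7.12 at 48 h, and 7.29 to 8.90 on its other arrays. The 11 genes of osteoblasts, stroma and endothelium averaged 9.45 and 9.80 at 48 h, 10.04 to 10.33 at 12 and 15 h, 9.23 at 9 h, 10.11 at 4 h, and 10.30 and 9.83 on those controls. Since the samples are bulk marrow, a change in a transcript and a change in the share of cells that carry it cannot be told apart.

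**Figure D1:**
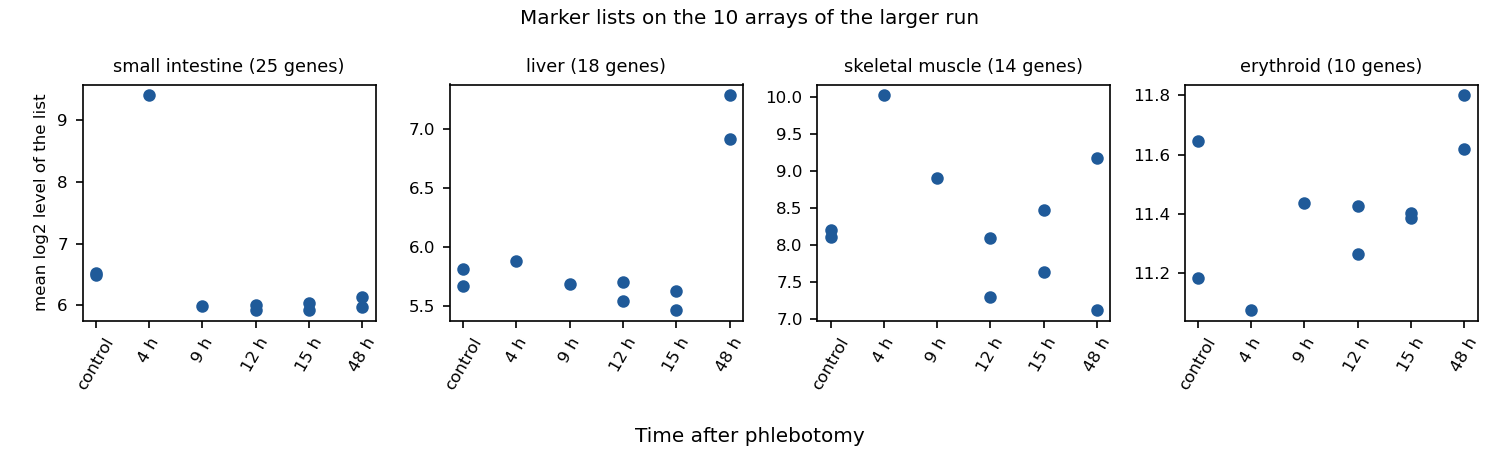
Mean log2 level (vertical axis) of the genes of 4 marker lists on each of the 10 arrays of the larger run, by time after phlebotomy (horizontal axis); each point is 1 array, and each panel has its own vertical scale that does not start at 0. The 4 h array stands at 9.40 for small intestine genes and both 48 h arrays stand above all others for liver genes, at 7.29 and 6.92.

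Each change below is a difference of log2 levels with its standard error (±), estimated by limma for 19938 genes on all 13 arrays with a term for the run; p-values were adjusted over those genes by the Benjamini-Hochberg method, and a gene passed under 0.05. Averaged over 9, 12 and 15 h, 2 of the 10 genes were higher than control, Asns and Mthfd2, and 0 were lower; of all genes tested 0.787% passed in this comparison. The median change of the 10 genes was 0.06, and that of all genes was -0.0022. At 4 h, 0 of the 10 passed (all genes 1.99%), and at 9 h also 0 (all genes 0.0953%). At 12 h 1 of the 10 passed (Mthfd2; all genes 0.105%), at 15 h again 1 (Mthfd2; all genes 0.256%), and at 48 h 1 (Asns; all genes 0.376%). Between 48 h and the mean of 12 and 15 h, 0 of the 10 passed (all genes 0.828%). At an unadjusted p under 0.05 the limma fit held 0 of the 10 genes at 4 h, 3 at 9 h and 5 between 48 h and the mean of 12 and 15 h, where the shares of all genes were 15.2%, 6.12% and 18.8%. It held 3 at 12 h (all genes 13.7%), 3 at 15 h (12.5%), 4 at 48 h (14%) and 4 over 9, 12 and 15 h (12%). The comparisons with control share their control arrays, so they are not independent of each other. In 4 of the 10 genes, Asns, Mthfd2, Psat1 and Atf4, each of the 7 arrays at 9, 12 and 15 h lay above every control of its run, a pattern met by 3.32% of all genes. The opposite pattern was shown by 0 of the 10. A 9 h array with the same value as the control of the smaller run keeps a gene out of both patterns. Such ties, held by Slc7a11, Slc3a2, Ddit3 and Trib3 among the 10, also lower the share of all genes.

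**Figure D2:**
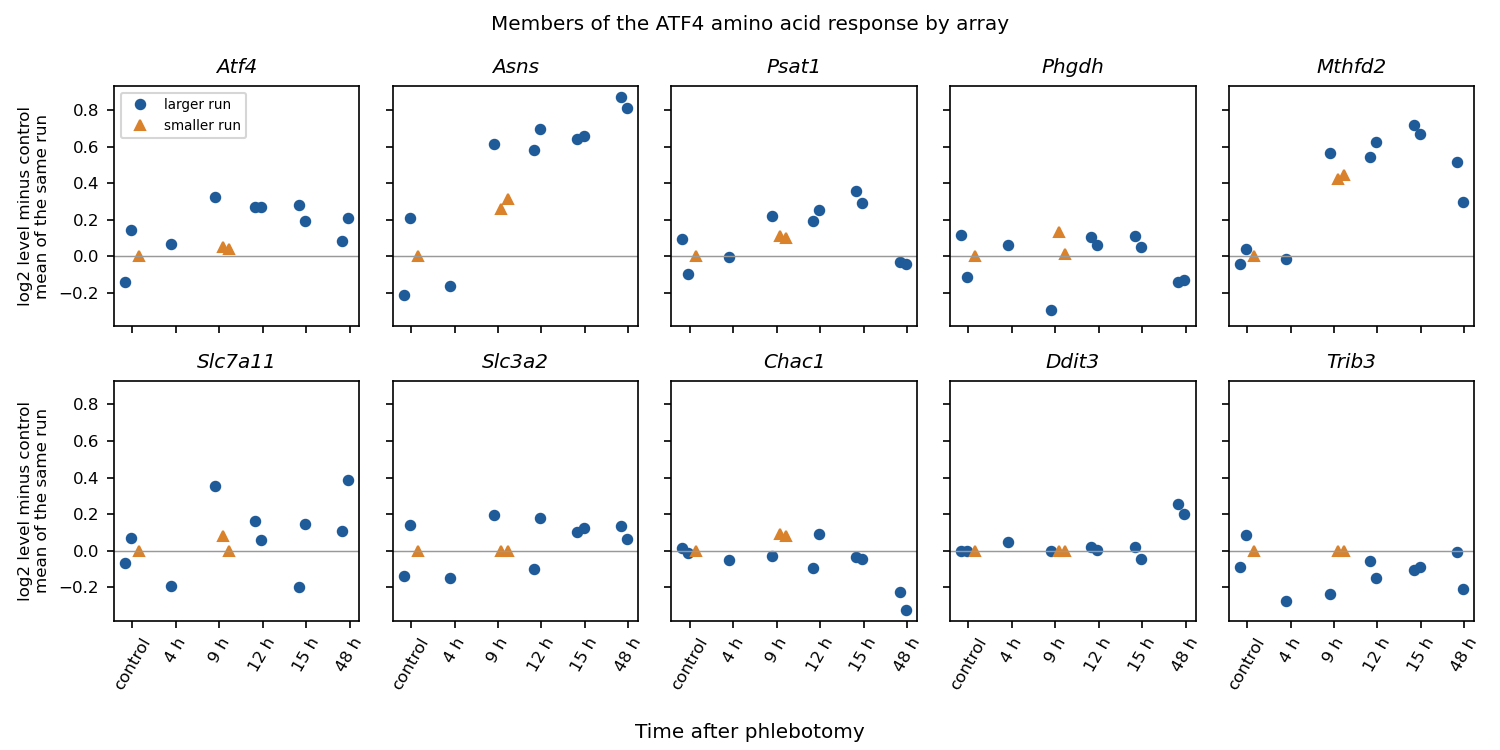
Log2 level of each of the 10 genes on each array minus the control mean of the same run (vertical axis), by time after phlebotomy (horizontal axis); circles are the 10 arrays of the larger run, triangles the 3 of the smaller run. In Asns and Mthfd2 all arrays from 9 h to 48 h lie above the controls of their run. Points of Slc3a2 and Phgdh lie both within and beyond the range of the controls. No Trib3 point lies above the higher control of its run, and most of its later points in the larger run lie below both controls.

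Atf4, the gene of the transcription factor itself, was measured at the level of its mRNA, which does not show how much protein is translated. Its log2 level in the larger run was 8.59 and 8.87 on the controls, 8.80 at 4 h and 9.05 at 9 h. It was 9.00 and 9.00 at 12 h, 9.01 and 8.92 at 15 h, and 8.81 and 8.94 at 48 h. The smaller run gave 9.81 on the control and 9.86 and 9.85 at 9 h. All arrays at 9, 12 and 15 h lay above the controls of their run, by little, and the 4 h array lay between the controls. The fitted difference of the mean of 9, 12 and 15 h from control was 0.20 ± 0.08 (95% interval 0.03 to 0.37), which did not pass after adjustment in limma (adjusted p = 0.328). At 9 h the difference was 0.32 within the larger run and 0.05 within the smaller. At 48 h the fitted difference was 0.10 ± 0.10 (adjusted p = 0.714).

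Asns encodes asparagine synthetase, which makes asparagine from aspartate and glutamine. Its log2 level in the larger run was 10.33 and 10.75 on the controls, 10.38 at 4 h and 11.15 at 9 h. It was 11.12 and 11.24 at 12 h, 11.18 and 11.20 at 15 h, and 11.41 and 11.35 at 48 h. Its level in the smaller run was 11.82 on the control and 12.08 and 12.13 at 9 h. The 4 h array fell within the range of the controls, every later array stood above the controls of its run, and both 48 h arrays were the highest of the larger run. The controls of the larger run differed by 0.42, the widest gap among the 10 genes; their erythroid marker means also differed, at 11.19 and 11.65, and the part of erythroid cells in the level of Asns was not tested. Averaged over 9, 12 and 15 h Asns rose by 0.54 ± 0.09, or 1.46-fold (limma adjusted p = 0.0257). At 48 h it rose by 0.79 ± 0.12, or 1.73-fold (limma adjusted p = 0.0259). The single times of 9, 12 and 15 h gave 0.45 ± 0.11, 0.58 ± 0.12 and 0.60 ± 0.12, with adjusted p of 0.352, 0.107 and 0.107. Within the runs the 9 h difference was 0.61 in the larger and 0.29 in the smaller.

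Both calls of Asns depended on single arrays. Leaving out the 4 h array cannot change a comparison that does not use it, since its group holds no other array. That fit repeats the reported one, so it is no check among the 13 left-out fits counted here and below. The rise over 9, 12 and 15 h lost its call without control replicate 2, either 12 h array or either 15 h array; over all 13 left-out arrays the value ran from 0.38 to 0.64 and the adjusted p from 0.0257 to 0.0811. The rise at 48 h lost its call without 9 h replicate 2, either 12 h array, either 15 h array or either 48 h array, with adjusted p from 0.0514 to 0.176 in those fits. Over all 13 left-out arrays the 48 h value ran from 0.60 to 0.90. On the larger run alone, with fewer arrays, Asns gave 0.63 over 9, 12 and 15 h (adjusted p = 0.0635) and 0.84 at 48 h (adjusted p = 0.0711). The 48 h arrays are those on which 11 of 18 liver genes passed as higher than control (all genes 0.376%). Alb (serum albumin) read 11.7 and 11.4 on the 48 h arrays and 6.87 and 7.23 on the controls of the larger run. The erythroid marker means of the 48 h arrays were 11.80 and 11.62. Whether liver RNA or the share of erythroid cells entered the 48 h level of Asns was not tested. Without both 48 h arrays, an alternative chosen after the data were seen, the comparison of 9, 12 and 15 h with control still called Asns and Mthfd2.

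Mthfd2 encodes a mitochondrial enzyme of one-carbon metabolism, which passes carbon from serine on to the folates used for purines and thymidylate. In the larger run its log2 level was 9.53 and 9.61 on the controls, 9.55 at 4 h and 10.13 at 9 h. It was 10.11 and 10.19 at 12 h, 10.29 and 10.24 at 15 h, and 10.08 and 9.86 at 48 h. In the smaller run it was 10.24 on the control and 10.66 and 10.69 at 9 h. The controls and the 4 h array lay within 0.08 of each other, the arrays at 9, 12 and 15 h lay above them, and the 48 h arrays lay between. Averaged over 9, 12 and 15 h Mthfd2 rose by 0.58 ± 0.06, or 1.49-fold (limma adjusted p = 0.00305). This call was kept with each of the 13 arrays left out in turn (adjusted p from 0.00305 to 0.0317) and on the larger run alone (0.61, adjusted p = 0.0406), and was lost with no term for the run (0.51). It rose by 0.56 ± 0.09, or 1.48-fold, at 12 h (adjusted p = 0.0455) and by 0.67 ± 0.09, or 1.59-fold, at 15 h (adjusted p = 0.0109). At 9 h the fitted difference was 0.50 ± 0.08 (adjusted p = 0.0515), with 0.57 within the larger run and 0.44 within the smaller. At 48 h it was 0.38 ± 0.09 (adjusted p = 0.0953).

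The call of Mthfd2 at 15 h was lost without control replicate 2, 15 h replicate 1 or 15 h replicate 2 (adjusted p up to 0.128). That at 12 h was lost when control replicate 2 or 3, any 9 h, any 12 h or any 15 h array was left out (in these fits values from 0.52 to 0.60, adjusted p from 0.065 to 0.271). On the larger run alone the 12 h and 15 h values were 0.58 (adjusted p = 0.155) and 0.69 (adjusted p = 0.0612). Of 25 small intestine genes, 8 passed as lower over 9, 12 and 15 h than control (all genes 0.787%). The median change of that list was -0.27. Reg3g, an antimicrobial lectin of the gut, read 7.61, 7.54 and 7.71 on the controls. On the arrays at 9, 12 and 15 h Reg3g read 5.40 to 6.11. The part of gut RNA on the control arrays in these rises was not tested. At 4 h, on 1 array where both intestine and skeletal muscle genes stood highest of the larger run, Mthfd2 differed from control by -0.04 ± 0.11. Time and tissue cannot be told apart on that array.

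Psat1 and Phgdh encode enzymes of the pathway that makes serine from a glycolytic intermediate; PHGDH takes its committed step and PSAT1 the transamination that follows. The log2 level of Psat1 in the larger run was 9.78 and 9.59 on the controls, 9.68 at 4 h and 9.90 at 9 h. It was 9.88 and 9.93 at 12 h, 10.04 and 9.97 at 15 h, and 9.65 and 9.64 at 48 h. The smaller run gave 10.62 on the control and 10.73 and 10.71 at 9 h. All arrays at 9, 12 and 15 h lay above the controls of their run, and the 48 h arrays fell back within the controls' range. The fitted difference over 9, 12 and 15 h was 0.22 ± 0.06 (95% interval 0.10 to 0.35; adjusted p = 0.131), that at 15 h 0.30 ± 0.08 (adjusted p = 0.176), and that between 48 h and the mean of 12 and 15 h -0.31 ± 0.07 (adjusted p = 0.0732); 0 of the 3 passed in limma.

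Phgdh read 8.45 and 8.22 on the controls of the larger run, 8.40 at 4 h and 8.04 at 9 h. It read 8.44 and 8.40 at 12 h, 8.45 and 8.39 at 15 h, and 8.20 and 8.21 at 48 h, all in log2. Its readings in the smaller run were 9.30 on the control and 9.44 and 9.31 at 9 h. The 9 h array of the larger run was the lowest of all its arrays, while both 9 h arrays of the smaller run lay above their control, so the within-run differences at 9 h had opposite signs, -0.29 and 0.07. Over 9, 12 and 15 h the fitted difference was 0.06 ± 0.08 (95% interval -0.11 to 0.23; limma adjusted p = 0.812). A further probe set for Phgdh was shared with the gene Gm6756 and was not used.

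Slc7a11 and Slc3a2 encode the light chain of the cystine importer (xCT) and the heavy chain (CD98) that it shares with other amino acid exchangers. The log2 level of Slc7a11 in the larger run was 7.20 and 7.33 on the controls, 7.07 at 4 h and 7.62 at 9 h. It was 7.43 and 7.32 at 12 h, 7.07 and 7.41 at 15 h, and 7.37 and 7.65 at 48 h. The 9 h array, both 48 h arrays, 1 of the 12 h arrays and 1 of the 15 h arrays stood above both controls, while the 4 h array and the other 15 h array lay below both. The smaller run gave 7.77 on the control and 7.85 and 7.77 at 9 h, the control and 1 of the 9 h arrays carrying the same value. The fitted differences were 0.06 ± 0.10 over 9, 12 and 15 h (95% interval -0.15 to 0.27; adjusted p = 0.848) and 0.20 ± 0.13 at 48 h (adjusted p = 0.534), both by limma.

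Slc3a2 had the highest mean log2 level of the 10 probe sets, a comparison that does not rank their transcripts, since probe sets differ in response. In the larger run it read 11.63 and 11.91 on the controls, 11.62 at 4 h and 11.96 at 9 h. It read 11.67 and 11.95 at 12 h, 11.87 and 11.89 at 15 h, and 11.90 and 11.83 at 48 h. The time points overlapped the range of the controls, apart from 4 h just below it and the 9 h and 12 h maxima just above it. In the smaller run the control and both 9 h arrays read 12.73. The fitted difference over 9, 12 and 15 h was 0.06 ± 0.08 (95% interval -0.12 to 0.24; limma adjusted p = 0.804).

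Chac1, Ddit3 and Trib3 belong to the stress end of the response: CHAC1 degrades glutathione, DDIT3 (CHOP) is a transcription factor that promotes cell death under lasting stress, and TRIB3 is a pseudokinase that restrains ATF4 and AKT. The readings of Ddit3 changed little up to 15 h. In the larger run its log2 level was 7.92 and 7.92 on the controls, 7.97 at 4 h and 7.92 at 9 h. It was 7.94 and 7.93 at 12 h, 7.95 and 7.88 at 15 h, and 8.18 and 8.13 at 48 h. Both 48 h arrays stood above all other arrays of the run. The fitted difference at 48 h was 0.23 ± 0.07 (95% interval 0.08 to 0.37; limma adjusted p = 0.172), and that over 9, 12 and 15 h had a 95% interval of -0.11 to 0.11 (adjusted p = 0.999). In the smaller run all 3 arrays carried the same value for Ddit3, 8.76, and likewise for Trib3, 7.59. This run thus holds no separate reading of a change in either gene, or of its spread.

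Chac1 had its lowest readings at 48 h. In the larger run it read 7.76 and 7.73 on the controls, 7.70 at 4 h and 7.72 at 9 h. It read 7.66 and 7.84 at 12 h, 7.71 and 7.70 at 15 h, and 7.52 and 7.43 at 48 h. Both 48 h arrays were the lowest of the run. Of its arrays from 4 to 15 h, 1 at 12 h lay above both controls. The others lay below both, by less than the 48 h arrays. Its readings in the smaller run were 8.57 on the control and 8.66 and 8.65 at 9 h. The fitted difference at 48 h was -0.26 ± 0.08 (95% interval -0.43 to -0.08; limma adjusted p = 0.193) and that over 9, 12 and 15 h was 0.01 ± 0.06 (adjusted p = 0.969). As with Asns, the liver transcripts on the 48 h arrays lie beside these values, and their part in them was not tested.

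Trib3 in the larger run read 6.70 and 6.88 on the controls, 6.52 at 4 h and 6.55 at 9 h. It read 6.73 and 6.64 at 12 h, 6.68 and 6.70 at 15 h, and 6.78 and 6.58 at 48 h. No array of the larger run stood above the higher of its controls. The arrays at 4 h, 9 h and 15 h, 1 at 12 h and 1 at 48 h lay below both controls, 1 of those at 15 h barely. The fitted difference over 9, 12 and 15 h was -0.08 ± 0.07 (95% interval -0.23 to 0.07; limma adjusted p = 0.692).

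At 4 h, with 1 array, the fitted differences of the 10 genes ran from -0.25 to 0.12, with adjusted p from 0.391 to 0.959. That array was assumed to vary like those of the other groups. It is also the array with the transcripts of small intestine, of which 22 of 25 passed as higher than control, and it has the highest skeletal muscle mean of its run, 10.03, although 0 of those 14 genes passed in limma. The part of either tissue in the levels of the 10 genes was not tested.

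Set against the mean of 12 and 15 h, the marrow at 48 h showed lower values of Psat1 (-0.31 ± 0.07), Chac1 (-0.25 ± 0.07), Mthfd2 (-0.23 ± 0.08) and Phgdh (-0.22 ± 0.10) and higher values of Ddit3 (0.23 ± 0.06), Slc7a11 (0.21 ± 0.12) and Asns (0.20 ± 0.11). None of the 10 passed in the limma fit; the adjusted p of Psat1 was 0.0732, of Ddit3 0.0913, of Chac1 0.109 and of Mthfd2 0.15. The median over the 10 genes was -0.06 and over all genes 0.020. Of the 18 liver genes, 15 passed as higher in the same comparison (all genes 0.828%), and their median difference was 1.19. The median difference of the 11 genes of osteoblasts, stroma and endothelium was -0.71 and that of the 14 skeletal muscle genes 0.25, with 0 of either list passing. The part of these tissues in the differences was not tested. These arrays all belong to the larger run, so the smaller run enters here only through the estimate of the spread. Values repeated on its arrays add no spread to that estimate. The standard error of Ddit3 was 0.059 here and 0.075 on the larger run alone. Those of the other genes were also larger on that run alone, apart from Phgdh (0.095 here and 0.088 there). The part of the repeated values in this was not tested.

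**Figure D3:**
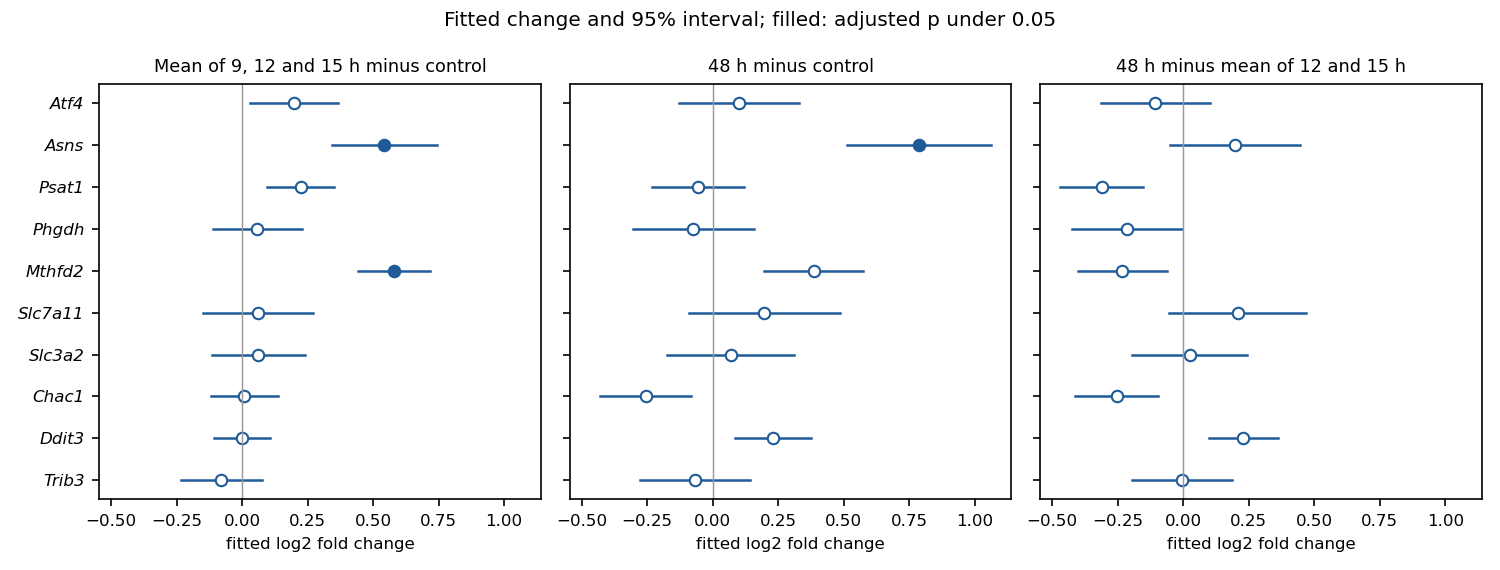
Fitted log2 fold change (horizontal axis) with its 95% interval for the 10 genes (vertical axis) in 3 comparisons, with filled circles for an adjusted p under 0.05. Mthfd2 and Asns pass over 9, 12 and 15 h, Asns at 48 h, and 0 genes between 48 h and the mean of 12 and 15 h.

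The rest of the pathway was read from 9 lists with 133 measured genes besides the 10. The lists, too, were chosen with earlier results of these data known. Over 9, 12 and 15 h against control 11 of the 133 rose and 0 fell, where 0.787% of all genes passed; the counts of each list below for these times stand against the same share. At 4 h 1 of the 133 rose (all genes 1.99%), at 9 h 1 (0.0953%), at 12 h 2 (0.105%), at 15 h 4 (0.256%) and at 48 h 1 (0.376%), with 0 falls in each of these comparisons. Upstream of ATF4, 2 of 14 genes of the eIF2 kinases, eIF2, its exchange factor eIF2B and its phosphatase rose over 9, 12 and 15 h, and the list's median change was 0.07. They were Eif2s2, the beta subunit of eIF2 (0.43, limma adjusted p = 0.0305), and Eif2b3, a subunit of the exchange factor (0.35, adjusted p = 0.0341). The kinase transcripts did not pass: Eif2ak1 (HRI) differed by -0.16 (adjusted p = 0.635), Eif2ak4 (GCN2) by 0.07, Eif2ak3 (PERK) by -0.05 and Eif2ak2 (PKR) by -0.13. Of 18 partner factors and signalling targets of ATF4, 1 rose, Xpot, which exports tRNA from the nucleus (0.32, adjusted p = 0.0359). Atf3 (-0.22, adjusted p = 0.343), Ddit4 (0.18) and Sesn2 (-0.05) did not pass. The calls of Eif2s2, Eif2b3 and Xpot were lost on the larger run alone (adjusted p = 0.177, 0.0844 and 0.159) and with 7, 10 and 10 of the 13 arrays left out in turn.

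Among 14 other enzymes of serine, glycine and one-carbon metabolism, 2 rose over 9, 12 and 15 h, and the list's median was 0.05. Shmt2, the mitochondrial enzyme that takes the carbon from serine, read 9.20 and 9.35 on the controls of the larger run and 9.26 at 4 h. It read 9.90 at 9 h, 9.69 and 9.79 at 12 h, 10.02 and 9.97 at 15 h, and 9.77 and 9.78 at 48 h, so that it left the range of the controls at the same arrays as Mthfd2. Shmt2 rose by 0.54 ± 0.06 (limma adjusted p = 0.00385), a call kept with each array left out in turn. Its call at 9 h (0.51, adjusted p = 0.0474) was kept in 2 of the 13 fits that left out an array, lost on the larger run alone (adjusted p = 0.11) and lost without both 48 h arrays (adjusted p = 0.0939); that at 15 h (0.68, adjusted p = 0.0109) was lost without control replicate 2 or either 15 h array. Mthfd1, the cytosolic enzyme of the same folate steps, read 9.24 and 9.24 on those controls, 9.49 at 4 h, 9.79 at 9 h, 9.73 and 9.91 at 12 h, 9.97 and 9.71 at 15 h, and 9.89 and 9.91 at 48 h. It rose by 0.54 ± 0.07 over 9, 12 and 15 h (adjusted p = 0.00623) and by 0.64 at 48 h (adjusted p = 0.0157). Without control replicate 2 the first of these had an adjusted p of 0.065, and on the larger run alone the adjusted p were 0.0538 and 0.091. Its 48 h call was lost without control replicate 1, control replicate 2 or either 48 h array (adjusted p from 0.0572 to 0.111), and its 15 h call (0.58, adjusted p = 0.0389) was kept in 4 of the 13 fits that left out an array. Mthfd1l (0.07), Psph (0.04), Shmt1 (0.03) and Aldh1l2 (0.18) did not pass.

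**Figure D4:**
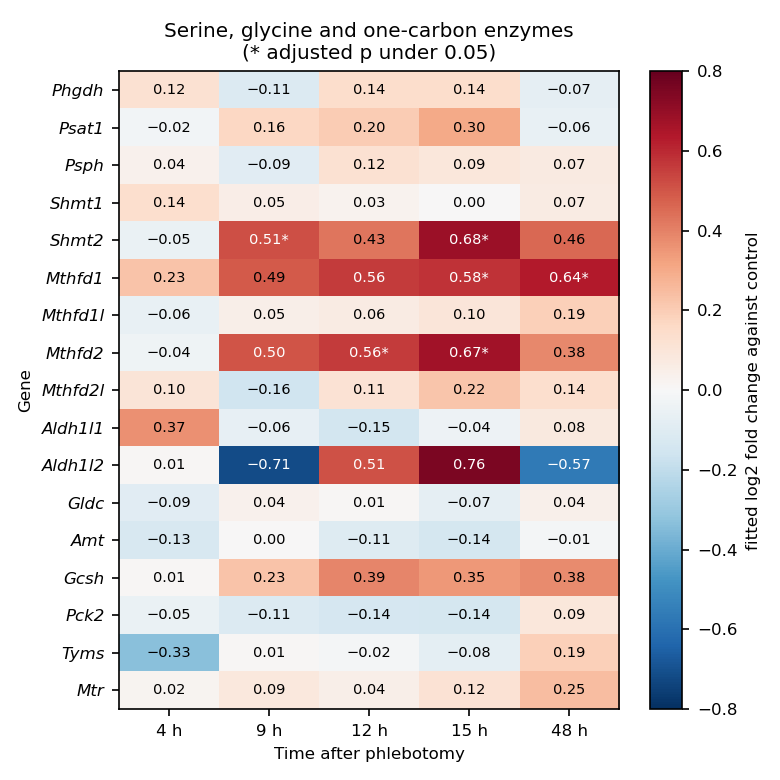
Fitted log2 fold change against control (colour and printed value) of Phgdh, Psat1, Mthfd2 and the 14 other enzymes of serine, glycine and one-carbon metabolism (vertical axis) at each time after phlebotomy (horizontal axis), with an asterisk for an adjusted p under 0.05. Shmt2, Mthfd1 and Mthfd2 hold all the asterisks, at 9 h for Shmt2, 12 h for Mthfd2, 15 h for all 3 and 48 h for Mthfd1.

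Of 10 measured cytosolic aminoacyl-tRNA synthetases, listed as having ATF4 sites that were not checked here, 2 rose over 9, 12 and 15 h. All 10 had values above 0 (all genes 49.1%), with a median of 0.25 against -0.0022 for all genes. The 2 were Tars, for threonine (0.53 ± 0.07, limma adjusted p = 0.00801; 0.0774 without control replicate 2), and Gars, for glycine (0.35, adjusted p = 0.0457). Cars, for cysteine, stood at 0.30 (adjusted p = 0.0531). The call of Gars was kept in 2 of the 13 fits that left out an array and was lost on the larger run alone (adjusted p = 0.128). Of 18 amino acid transporters besides Slc7a11 and Slc3a2, 0 passed in limma in any of the 7 comparisons, where 1 to 7 of them had an unadjusted p under 0.05 (all genes 6.12% to 18.8%), and the median over 9, 12 and 15 h was 0.01. Of 15 other amino acid enzymes, 1 passed in any comparison. This was Cth, which makes cysteine from cystathionine and read 7.08 at 4 h against 5.94 and 6.13 on the controls of the larger run (1.04 ± 0.17, limma adjusted p = 0.00724), on the array with intestinal transcripts, whose part in it was not tested.

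Of 12 mitochondrial stress and protease genes, 3 rose over 9, 12 and 15 h, all of them chaperones of the mitochondrial matrix. Hspe1 rose by 0.66 ± 0.08 (limma adjusted p = 0.00385), its partner Hspd1 by 0.50 (adjusted p = 0.00683) and Hspa9 by 0.49 (adjusted p = 0.0247). Without control replicate 2 these became 0.0554 for Hspe1 and 0.071 for Hspd1. Hspa9 lost its call without that array, 9 h replicate 1, 12 h replicate 1 or either 15 h array, with values from 0.38 to 0.56 over all 13 left-out fits. It also lost its call on the larger run alone (adjusted p = 0.0805). Hspe1 and Hspd1 also passed at 12 h (0.79 and 0.58, limma adjusted p = 0.0272 and 0.0454) and at 15 h (0.73 and 0.54, adjusted p = 0.0227 and 0.0387). On the larger run alone these calls at 12 h and 15 h were lost. Of 14 glutathione and NRF2 genes 1 rose over 9, 12 and 15 h, Gss, which completes glutathione (0.42, limma adjusted p = 0.0304). Its call was kept in 5 of the 13 fits that left out an array and lost on the larger run alone (adjusted p = 0.0539). Of 20 genes of the XBP1 and ATF6 arms of the unfolded protein response, 0 passed in limma over 9, 12 and 15 h, where 8 of 20 had an unadjusted p under 0.05 (all genes 12%), 18 of 20 had values above 0 (all genes 49.1%) and the median was 0.12. At 48 h against the mean of 12 and 15 h 2 of the 20 fell, the disulfide isomerases Pdia3 (-0.40, limma adjusted p = 0.035) and Pdia4 (-0.44, adjusted p = 0.0427), where 0.828% of all genes passed, and the median was -0.20. Plasma cell markers, another source of such transcripts, averaged 7.68 and 7.90 at 48 h and 7.83 to 8.15 at 12 and 15 h, with 0 of 9 called. The 11 genes of osteoblasts, stroma and endothelium had a median difference of -0.71 in that comparison, with 0 called. The part of either list's cells in the falls was not tested. The call of Pdia3 was kept in 5 of the 13 fits that left out an array, and that of Pdia4 in 3. Both were lost on the larger run alone.

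The genes most like Mthfd2, Asns and Psat1 in pattern were found over the 10 arrays of the larger run, as the smallest mean absolute difference of log2 values after each gene was centred on its own mean. For Mthfd2 they were Shmt2 (0.0645), Npm1, a nucleolar chaperone (0.0872), and Hspd1 (0.0876), where the median over all genes was 0.267. For Asns they were Tlcd4 (0.0881), Kbtbd8, a substrate adaptor of a ubiquitin ligase (0.1000), and Slc39a8, a zinc and manganese importer (0.108), with a median of 0.322. For Psat1 they were Calr, the endoplasmic reticulum chaperone calreticulin (0.0432), Mtap, of methionine salvage (0.0465), and Lrrc59 (0.0491), with a median of 0.169. Of these 9 genes, 3 were on the pathway lists: Shmt2, Hspd1 and Calr. The lists hold 133 of the 19938 genes. They were chosen with earlier results of these data known, so this count is a description and not a test.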

How the data were processed

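The deposited table holds 1 log2 level per probe set and array, which the authors computed by robust multi-array averaging (RMA), as the submitters' processing notes state. Its version and the set of arrays normalized together are not given in the sources used here. Of 35557 probe sets, 21789 have 1 gene symbol in the platform annotation, 1621 have several and 12147 are unnamed here. Symbols were updated through Entrez identifiers for 21698, and the probe set with the highest mean stood for each of 999 genes with several, which left 19938 genes.

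From these values 1 linear model of the 6 groups plus the run of title numbers, as a fixed effect, was fitted with limma 3.58.1 in R 4.3.3 (6 residual degrees of freedom, 4.62 prior). The limma adjusted p uses the Benjamini-Hochberg method over all genes. No filter on dim genes was used. The fit was tested on simulated data with independent normal noise on every array. Those data held none of the repeated values of the smaller run, so they do not show the error rate here. The number of arrays limits the precision. Alternatives changed the run term, arrays, filter, probe sets, scaling, variance moderation and array weights, and left out each array. Leaving out the 4 h array repeats the reported values of the other comparisons.

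The 10 genes and the lists were chosen with earlier results of these data known. Named besides the 10 were the genes past the threshold of each pathway list, at most 6 per list and comparison, with further members given as not passing, the 3 nearest patterns of 3 genes, and marker genes of wide range. Plots used matplotlib 3.10.9 under Python 3.11.15.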

Additional observations from a re-analysis of the deposited data

Results flagged for a closer look

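Pdia3 and Pdia4, disulfide isomerases of the endoplasmic reticulum, differed between 48 h and the mean of 12 and 15 h by a test of that difference. Pdia3 fell by 0.40 on the log2 scale (limma adjusted p = 0.035) and Pdia4 fell by 0.44 (adjusted p = 0.0427). On the larger run alone the adjusted p were 0.0978 for Pdia3 and 0.118 for Pdia4. Of the 13 fits that left out an array, 5 kept the call of Pdia3 and 3 that of Pdia4. Both calls were also lost with no run term, with every probe set tested and with array weights. That of Pdia4 was lost as well with dim genes left out and with only the groups of the comparison.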

How the results depend on the processing

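Of 1710 values recomputed for the 10 genes, 1651 kept their direction and side of the threshold, 45 lost a call, 14 gained one and 0 turned sign with a call; 71 turned sign without passing in either fit. The number of the 10 genes called fell from 1 to 0 at 12, 15 and 48 h with array weights, with every probe set tested, with only the groups of the comparison, on the larger run only and with no run term, and at 12 h also after quantile normalization within each run. Over 9, 12 and 15 h it fell from 2 to 1 with array weights, every probe set or the larger run only, and to 0 with no run term, where the level shift between the runs enters the spread. At 9 h it rose from 0 to 1 (Mthfd2) with arrays centred on their median, dim genes left out, the run as a random block, or a variance trend with robust moderation, and in fits chosen after the data were seen, without both 48 h arrays and without the 4 h and 48 h arrays. Leaving out each array in turn gave 0 to 1 of the 10 genes at 4 h, 9 h and 48 h, 0 to 2 at 12 h, at 15 h and between 48 h and the mean of 12 and 15 h, and 1 to 2 over 9, 12 and 15 h. Without control replicate 1 Asns passed at 4 h (-0.41, limma adjusted p = 0.0396), 12 h (0.39, adjusted p = 0.0453) and 15 h (0.41, adjusted p = 0.0385), and between 48 h and the mean of 12 and 15 h Psat1 (-0.31, adjusted p = 0.0283) and Ddit3 (0.23, adjusted p = 0.0499) passed. Without control replicate 2 Psat1 passed there (adjusted p = 0.0382).

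Over the alternatives without left-out arrays, all genes called numbered 78 to 1852 at 4 h (397 in the reported fit), 3 to 32 at 9 h (19), 2 to 112 at 12 h (21), 5 to 81 at 15 h (51), 11 to 143 at 48 h (75), 8 to 252 over 9, 12 and 15 h (157) and 11 to 499 between 48 h and the mean of 12 and 15 h (165). Without control replicate 1 they were 1359, 414, 505, 340 and 1265 at 4 h, 12 h, 15 h, over 9, 12 and 15 h, and between 48 h and the mean of 12 and 15 h. Counts also fell: to 6 at 12 h without 12 h replicate 1, to 6 at 15 h without 15 h replicate 2, to 5 at 9 h without 9 h replicate 3, to 31 at 48 h and 28 between 48 h and the mean of 12 and 15 h without 48 h replicate 1, and to 31 over 9, 12 and 15 h without control replicate 2. At 9 h the count rose to 75 without control replicate 3. The cause was not tested. Of 2366 values of the 14 other pathway genes called, 221 lost a call, 48 gained one and 0 turned sign with a call. No paired analysis was possible because the replicate numbers follow accession order and pair nothing. Each of the 10 genes had 1 probe set annotated to it alone, so no other such probe set could be tried, and 4 h has no value without its only array.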
